A study of Mus musculus with 6 samples.

Results

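Solute carrier genes (Slc) were taken as every gene region of the deposited table with at least 3 listed cytosine positions whose RefSeq transcript has a symbol made of Slc and a number, with Slc2a5 left out. A gene region is a 3000-bp stretch that the authors tied to 1 transcript. The rule gave 210 of the 10021 gene regions with at least 3 positions, from 204 genes in 48 numbered families on 20 chromosomes, and they held 4802 of the 268725 positions. The positions per region ran from 3 to 142, with a median of 16.5. The 12 members with 3 positions had levels from 5.12% to 93.2%, and the 7 regions of the same name pattern with fewer positions, left out by the rule, had levels from 2.63% to 97.2%. Sorted mainly by family number, 31 members were mitochondrial carriers (Slc25), 120 were carriers of the plasma membrane, 49 worked in internal membranes and 7 were mixed or other. The other 3 members (Slc4a1ap, Slc9a3r1 and Slc9a3r2) carry an Slc symbol but are adaptor proteins that bind carriers. Some families were split by member, with Slc39a13 counted under internal membranes and Slc39a8 under the plasma membrane. The classes are coarse, and the Slc25 class also holds the peroxisomal carrier Slc25a17. Mitochondrial carriers outside Slc25 were counted under internal membranes. Family Slc30 was placed there as a whole, Slc30a1 included, so that class can hold members that act elsewhere.

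The study measured cytosine methylation by reduced representation bisulfite sequencing, which reads CpG-rich fragments of the genome, in quadriceps muscle of C57BL/6 mice. The 3 exercised samples came from mice with 4 weeks of treadmill training, with DNA taken 3 hours after the last bout, and the 3 sedentary samples came from untrained controls. The labels give neither age nor sex nor the number of animals behind a sample, so each p-value rests on the spread among these 6 samples, which may be technical. Coverage summed over positions ran from 14556783 to 17815556 calls in the exercised libraries and from 9153526 (sedentary sample 3) to 18656340 calls in the sedentary ones. In whole muscle, a change in the share of a cell type and a change of methylation within a cell cannot be told apart.

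Solute carriers are membrane proteins that move sugars, amino acids, ions, metals, nucleosides and metabolic acids across a membrane, each family with its own substrates. Slc25 proteins sit mostly in the inner mitochondrial membrane and exchange ADP for ATP, phosphate, citrate, glutamate and cofactors with the cytosol. Plasma membrane carriers bring glucose, lactate, fatty acids, creatine and amino acids into the muscle fibre or out of it. The fatty acid carriers (Slc27) were counted here under mixed or other. CpG-rich promoters of widely used genes are mostly unmethylated in somatic tissue, whereas CpG-poor promoters of genes used in few tissues are often methylated.

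The promoters printed here show how far CpG content varies among these genes. They span 300 bases around the annotated start, most of them before it, and are credited to RefSeq (GRCm38.p6), with CpG sites in capitals. Slc25a34 (chr4:141623785-141624084, minus strand), an Slc25 member, holds 1 CpG, and Slc5a4a (chr10:76147201-76147500, plus strand), a relative of the sodium-coupled glucose carriers, holds 4. Slc25a4 (chr8:46211013-46211312, minus strand), the ADP/ATP carrier of heart and muscle, holds 25. Slc16a1 (chr3:104638414-104638713, plus strand), a lactate carrier, holds 42. Slc45a3, of the proton-coupled sugar carrier family, has an upstream start (chr1:131962665-131962964, plus strand) with 17 CpG and a downstream start (chr1:131970359-131970658, plus strand) with 2. The motif searched was CG, which reads the same on both strands and is found in 94.6% of the 32851 RefSeq promoters of 300 bases, with a median of 7 per promoter.
Slc25a34: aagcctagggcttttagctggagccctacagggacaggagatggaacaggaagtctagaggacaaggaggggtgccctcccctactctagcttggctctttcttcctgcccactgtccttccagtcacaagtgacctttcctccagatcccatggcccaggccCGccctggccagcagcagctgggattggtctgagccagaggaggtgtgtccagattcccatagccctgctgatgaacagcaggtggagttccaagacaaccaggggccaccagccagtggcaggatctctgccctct
Slc5a4a: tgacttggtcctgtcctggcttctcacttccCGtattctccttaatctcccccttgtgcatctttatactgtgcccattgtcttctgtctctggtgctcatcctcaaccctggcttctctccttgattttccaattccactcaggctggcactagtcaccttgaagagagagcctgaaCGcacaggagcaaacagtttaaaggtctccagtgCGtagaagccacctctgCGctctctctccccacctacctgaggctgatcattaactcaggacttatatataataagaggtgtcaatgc
Slc25a4: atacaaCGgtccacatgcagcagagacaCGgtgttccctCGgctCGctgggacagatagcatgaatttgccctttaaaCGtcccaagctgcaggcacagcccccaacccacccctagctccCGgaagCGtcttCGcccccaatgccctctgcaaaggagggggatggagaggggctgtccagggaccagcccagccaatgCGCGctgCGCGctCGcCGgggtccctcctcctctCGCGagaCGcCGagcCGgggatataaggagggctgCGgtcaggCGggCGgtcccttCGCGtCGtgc
Slc16a1: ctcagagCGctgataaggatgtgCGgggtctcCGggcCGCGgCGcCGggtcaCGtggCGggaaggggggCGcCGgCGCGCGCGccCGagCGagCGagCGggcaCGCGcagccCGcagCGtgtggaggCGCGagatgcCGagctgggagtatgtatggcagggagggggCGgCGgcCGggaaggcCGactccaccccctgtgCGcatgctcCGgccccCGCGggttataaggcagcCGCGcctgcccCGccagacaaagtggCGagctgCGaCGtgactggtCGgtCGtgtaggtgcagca
Slc45a3 upstream: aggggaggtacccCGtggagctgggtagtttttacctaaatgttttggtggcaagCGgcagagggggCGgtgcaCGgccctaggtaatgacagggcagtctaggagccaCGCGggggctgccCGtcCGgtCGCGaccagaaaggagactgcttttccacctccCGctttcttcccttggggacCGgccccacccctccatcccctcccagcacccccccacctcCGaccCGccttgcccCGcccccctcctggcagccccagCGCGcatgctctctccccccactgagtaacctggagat
Slc45a3 downstream: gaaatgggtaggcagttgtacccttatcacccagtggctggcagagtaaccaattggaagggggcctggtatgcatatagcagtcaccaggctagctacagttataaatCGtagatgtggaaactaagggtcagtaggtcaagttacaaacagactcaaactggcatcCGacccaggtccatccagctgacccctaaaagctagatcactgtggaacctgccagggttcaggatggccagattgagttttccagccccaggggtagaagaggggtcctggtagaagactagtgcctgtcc

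The level of a region is the percentage of its reads that were methylated, and mitochondrial and plasma membrane carriers had nearly the same levels. The 31 Slc25 regions had a median level of 23.7% (quartiles 18.04% and 32.4%), against 23.8% (17.5% and 32.98%) in the 120 plasma membrane regions. The 49 regions of internal-membrane carriers had a median of 22.9%. The median over all 210 members was 23.1%, against 21.98% over all 10021 regions. Sample by sample, the Slc25 median was 23.4%, 23.4% and 22.1% in the exercised libraries, against 22.2%, 21.7% and 24.1% in the sedentary libraries. The plasma membrane median was 24.4%, 24.2% and 22.8% in exercised samples, and 25.2%, 23.2% and 24.1% in sedentary samples. The groups overlapped in both classes. Members are not replicates of a condition, so no test was made between the classes.

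These levels rest largely on single cytosines that stand out from their surroundings. A stand-alone position is one at a mean level of 10% or more whose other listed positions within 100 bases, at least 2 of them, have a median level under 10%. Most positions in Slc regions were nearly unmethylated, with 68.4% under 10%, against 69.2% over all regions. Of the 1518 Slc positions at 10% or more, 1254 (82.6%) were stand-alone, against 82.5% over all regions. Their median level was 70.5% while that of their surroundings was 2.12%. The 2 strands of a CpG, listed as adjacent positions, differed by 50 percentage points or more in 355 of 1632 Slc pairs (21.8%), against 20.2% over all regions. The share was 68 of 271 pairs in Slc25 regions (25.1%) and 187 of 892 in plasma membrane regions (21.0%).

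Without stand-alone positions the 2 carrier classes had low typical levels, and their upper quartiles were further apart than their medians. The median was 2.43% in the 31 Slc25 regions (quartiles 1.86% and 10.5%), against 3.73% in the 114 plasma membrane regions that still had 3 positions (1.84% and 22.8%). Regions under 10% then numbered 23 of 31 for Slc25 and 79 of 114 for the plasma membrane carriers. Over all members 148 of 201 were under 10%, against 7472 of 9695 over all regions. Most mitochondrial regions were thus under 10% after this step, like gene regions in general. Stand-alone positions are at 10% or more by definition and were most of the Slc positions at that level. Leaving them out therefore gives low levels largely by construction.

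**Figure D1:**
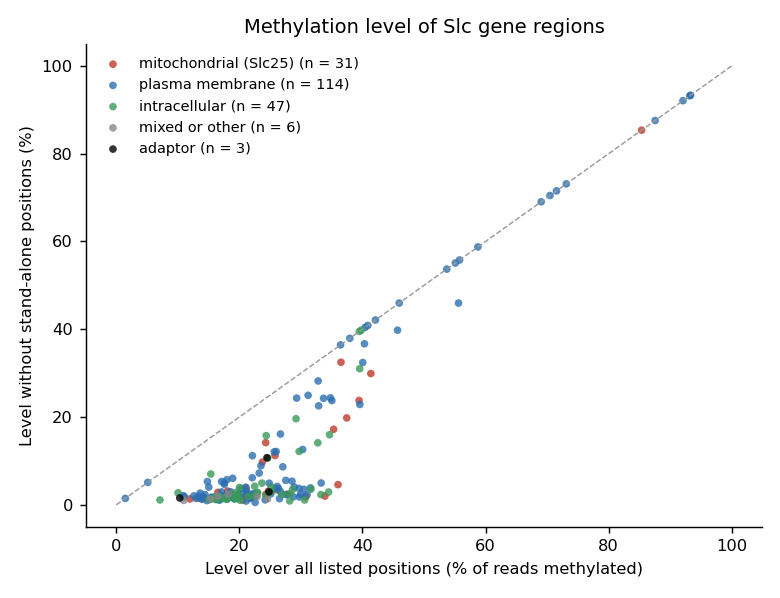
Methylation level of each Slc gene region over all listed positions (x axis, % of reads methylated) against its level without stand-alone positions (y axis, %), mean of the 6 samples, coloured by carrier class, for the 201 regions that kept 3 positions. Most regions lie near the bottom of the plot, under 10%. The 9 regions at 60% or more have no stand-alone position and so lie on the dashed line of equal values.

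Slc25a34 was the Slc25 region with the highest level. It stood at 98.7%, 80.3% and 88.9% in exercised samples and 77.6%, 83.2% and 83.5% in sedentary samples, over 4 positions. The groups overlapped, and the region had no stand-alone position. The other Slc25 regions lay at 41.4% or lower. Slc25a5 (41.4%), an ADP/ATP carrier on the X chromosome, came next among those named here, followed by Slc25a25 (37.4%), an ATP-Mg/phosphate carrier. Slc25a22 (36.5%), a glutamate carrier, Slc25a17 (36.03%), a peroxisomal cofactor carrier, Slc25a35 (35.3%) and Slc25a21 (33.9%), a carrier of oxodicarboxylates, completed the upper part of the order. These upper members did not separate from their neighbours, since the samples of adjacent regions overlapped from Slc25a5 downward.

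The middle of the Slc25 order held carriers of many substrates. Slc25a26 (30.8%) brings S-adenosylmethionine, the methyl donor, into the mitochondrion. Slc25a16 (27.8%), Slc25a38 (26.02%, glycine), Slc25a1 (25.8%, citrate), Slc25a51 (24.7%, NAD), Slc25a13 (24.3%, aspartate and glutamate) and Slc25a29 (24.3%, basic amino acids) followed. Next were Slc25a40 (23.7%), Slc25a30 (22.3%), Slc25a36 (21.8%, pyrimidine nucleotides), Slc25a37 (21.2%, iron, mitoferrin 1), Slc25a48 (21.1%), Slc25a42 (20.6%, coenzyme A) and Slc25a10 (20.03%, dicarboxylates). The middle of the order thus runs from 20.03% to 30.8%, and adjacent regions overlapped between samples.

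The lowest Slc25 regions included the carriers best known from muscle. Slc25a53 was at 18.1%, Slc25a4 at 17.99%, Slc25a28 (mitoferrin 2) at 17.7%, Slc25a39 (glutathione) at 16.99% and Slc25a12 (aspartate and glutamate, the form of muscle and brain) at 16.5%. Slc25a46, of the outer membrane, was at 15.2%, Slc25a33 (pyrimidine nucleotides) at 14.2%, Slc25a23 (ATP-Mg/phosphate) at 13.4% and Slc25a15 (ornithine) at 11.97%. Without stand-alone positions each of these regions was under 5%, from 1.22% in Slc25a46 to 3.12% in Slc25a53.

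**Figure D2:**
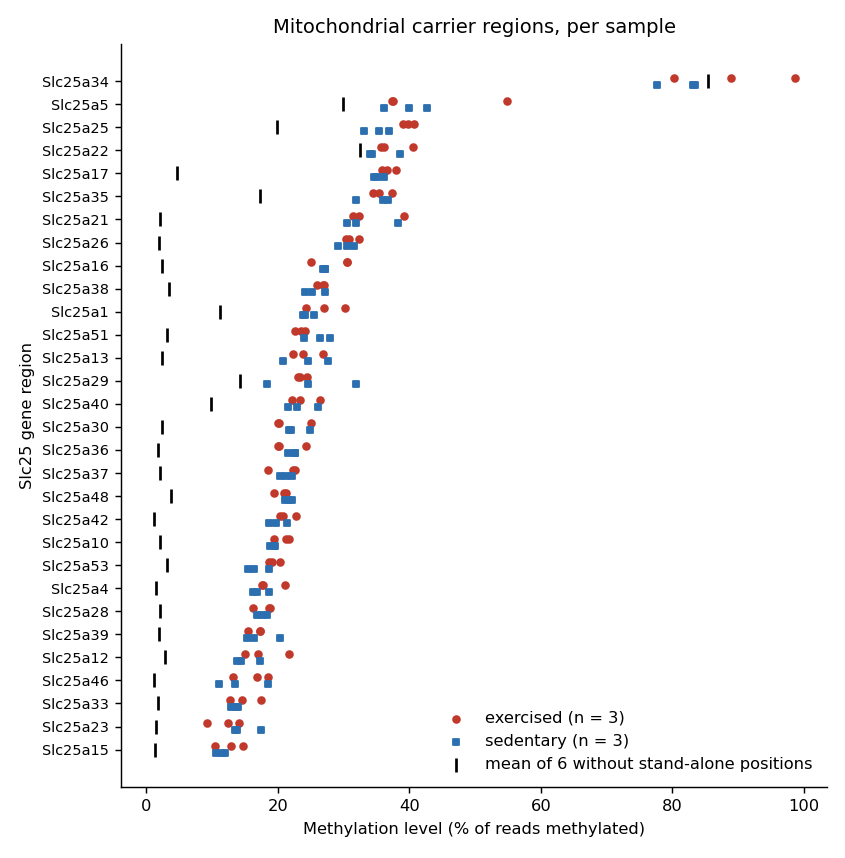
Methylation level (% of reads methylated) of 30 of the 31 Slc25 regions, ordered by level, in 3 exercised samples (red circles) and 3 sedentary samples (blue squares), with the mean level without stand-alone positions as a black tick. Slc25a34 stands apart at the top, and for most other regions the tick lies well to the left of the points.

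Members at a level of 60% or more numbered 9, and none of them had a stand-alone position. Among them Slc5a4a stood at 93.2%, Slc4a9 (an anion exchanger of kidney) at 92.1%, Slc36a2 (a proton-coupled amino acid carrier) at 87.6% and Slc25a34 at 85.4%. Slc44a4, a choline carrier-like protein, was at 73.1%, the downstream Slc45a3 region at 71.5%, 1 of the Slc7a7 regions (basic amino acids) at 70.5% and 1 of the Slc29a1 regions (nucleosides) at 69.0%. Of these 9 members 8 were plasma membrane carriers, and they had few positions, at most 9 with a median of 4. Over all regions 333 of 10021 were at 60% or more.

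At the other end, 4 members were under 10%. They were Slc47a1 (1.47%), an exporter of organic cations, Slc7a8 (5.12%), an exchanger of large neutral amino acids, Slc17a5 (7.10%), the lysosomal sialic acid carrier, and Slc41a1 (7.31%), a magnesium carrier. Among members with at least 6 positions, Slc36a2 (87.6%) and Slc29a1 (69.0%) were the 2 highest, followed by Slc6a6 (45.7%), the taurine carrier, Slc25a5 (41.4%) and the folate carrier Slc19a1 (40.3%). The 3 lowest of them were Slc17a5 (7.10%), Slc15a4 (10.04%), the lysosomal histidine and peptide carrier, and Slc9a3r2 (10.3%).

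Regions with more positions had lower levels. Across the 210 members Spearman's rho between level and number of positions was -0.575, against -0.513 over all 10021 regions; regions on the same chromosome share libraries and depth, and no test was made. The 93 members with at least 20 positions had levels between 10.9% and 31.2%. Of these 93, 73 were under 5% without stand-alone positions, and the highest then stood at 24.96%.

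Members with CpG-rich promoters also had lower levels over all listed positions. A RefSeq promoter was matched by symbol for 163 of 204 genes, and 127 members had a single promoter entry and a single region. The 11 of these with fewer than 10 CpG in 300 bases had a median level of 29.95%, and the 43 with 10 to 19 had 24.3%. The 51 with 20 to 29 had 21.8%, and the 22 with 30 or more had 19.6%. Over all regions with a single promoter the 4 medians were 30.99%, 25.04%, 22.2% and 18.97%, with the same order from CpG-poor to CpG-rich promoters. Without stand-alone positions the members' medians were 3.06%, 3.19%, 2.42% and 2.66%, so they no longer fell at each step. Spearman's rho between level and CpG count was -0.194 over the 127 members and -0.357 over the 6127 single-promoter regions. Without stand-alone positions it was -0.144 over 123 members, so a weak negative relation was left. Promoter letters come from GRCm38.p6 while levels come from mm9 regions whose placement at the gene no source used here gives. The median CpG count was 24 in 19 Slc25 promoters and 20 in 68 plasma membrane promoters.

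Of the 204 genes, 5 had more than 1 region, and the 2 Slc45a3 regions differed most. The upstream region (mm9 chr1:133857492-133860491) was at 15.5% over 48 positions, and the downstream region (mm9 chr1:133865186-133868185) at 71.5% over 4 positions. Their starts lie 7694 bp apart in mm9, as do the 2 promoter entries printed above in GRCm38.p6. The upstream promoter holds 17 CpG and the downstream promoter 2. Without stand-alone positions the upstream region was at 1.60% and the downstream region still at 71.5%. The 3 Slc29a1 regions were at 22.1%, 28.6% and 69.0%. Those at 22.1% and 28.6% overlap by 1068 bp, and the last shares 688 bp with the region of Mymx, a fusion factor of muscle precursors. The 2 Slc7a7 regions were at 55.8% and 70.5%. The Slc37a1 pair (24.6% and 33.3%) and the Slc39a8 pair (17.1% and 27.6%) overlap by 2259 and 2834 bp. The regions of each pair thus cover much of the same stretch of the genome and are not independent. Whether any listed position was counted in both was not examined.

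**Figure D3:**
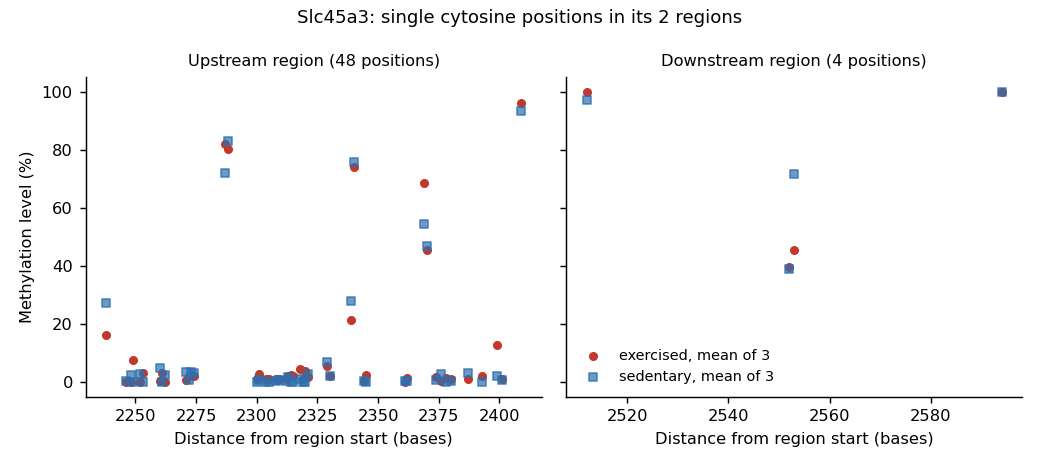
Methylation level (%) of single cytosine positions in the upstream and the downstream Slc45a3 region by distance from the start of the region (bp), as means of 3 exercised samples (red circles) and 3 sedentary samples (blue squares). Most upstream positions lie near 0 with stand-alone positions above them, and at the downstream position with the largest gap the means are 45.5% in exercised and 71.5% in sedentary samples.

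The comparison of exercised with sedentary muscle asks which genes differ in methylation after training. No Slc region was called at an adjusted p under 0.05 (edgeR quasi-likelihood test, Benjamini-Hochberg over 10021 regions), and over all regions 0.0% were called. At an unadjusted p under 0.05 there were 4 of 210 members (1.90%), against 2.37% of all regions. Higher in exercised samples were Slc7a8 and Slc39a13 (1.46% of all regions passed on this side), and lower were Slc5a5 and the downstream Slc45a3 region (0.908% of all regions). Limma on log2 ratios of methylated to unmethylated reads also called no member, and put 6 members (2.86%) and 283 of all regions (2.82%) at an unadjusted p under 0.05. The members' share at an unadjusted p under 0.05 was near that of all regions, above it under 7 of 14 alternatives and not above it under the other 7. Without stand-alone positions it was 12 of 201 members (5.97%), against 423 of 9695 regions (4.36%).

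The direction of the members' differences was that of gene regions in general. The difference (exercised minus sedentary) was above 0 in 127 of 210 members (60.5%) and below 0 in 83, against 61.0% above 0 over all regions. Its median was 0.327 percentage points, against 0.390 points over all regions. Slc25 regions were higher in exercised samples in 22 of 31 cases (71.0%) with a median of 1.10 points, against 70 of 120 (58.3%) and 0.264 points for plasma membrane carriers and 27 of 49 (55.1%) and 0.173 points for internal carriers. The Slc25 median was 0.272 points without exercised sample 1, and it was 0.329 points without stand-alone positions. With each position given equal weight, in place of summed reads, it was 0.326 points, with 20 of 31 regions higher. The corresponding plasma membrane values were -0.0742, 0.166 and 0.150 points, and over all regions the median with equal weight was 0.189 points. The median of all members was -0.108 points without exercised sample 1 and 0.123 points with equal weight. None of the 31 Slc25 regions reached an unadjusted p under 0.05, and no test was made of the gap between the classes.

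**Figure D4:**
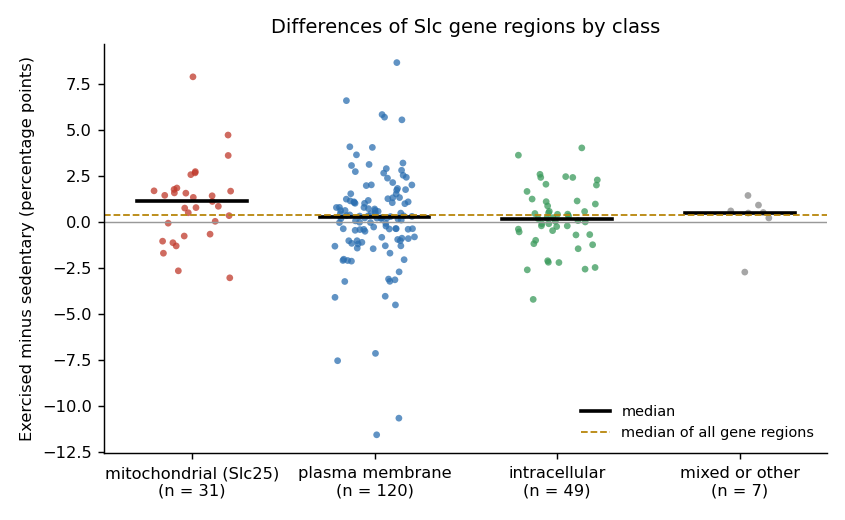
Difference in methylation level of each carrier region (exercised minus sedentary, percentage points) in 4 classes, with the class median as a black bar and the median of all gene regions as a dashed line. The Slc25 median (1.10 points) lies above the dashed line (0.390 points) and the plasma membrane median (0.264 points) below it, with wide overlap of the points.

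Most differences were no larger than the spread between samples. The median SD within a group was 2.14 percentage points over the members, and the difference was within that region's pooled SD in 158 of 210 members (75.2%), against 76.0% of all regions. The median SD was 4.49 points in the 33 members with 3 to 5 positions, 2.36 points in the 84 with 6 to 19 and 1.70 points in the 93 with at least 20. The exercised and sedentary samples did not overlap in 9 members (4.29%), against 7.25% of all regions. In 7 of them every exercised sample was higher (4.91% of all regions), and in 2 every exercised sample was lower (2.35% of all regions). The 7 were Slc25a25, Slc25a53, Slc35c1, Slc35c2, Slc35g1, Slc41a2 and Slc43a3, and the 2 were Slc5a5 and the downstream Slc45a3 region. With positions weighted equally the groups overlapped in all of these except Slc43a3 and the downstream Slc45a3 region. The difference was then -1.13 points in Slc35c1, 0.0321 points in Slc35g1 and 3.41 points in Slc43a3. Of the 7 higher members, 3 belong to Slc35, a family that includes nucleotide sugar carriers of the Golgi. They were 3 of its 22 regions (13.6%, against 4.91% of all regions on the higher side). The family was picked out after the values were seen, and no test was made. Over summed reads the differences of these 3 were small, from 0.416 points in Slc35g1 to 2.41 points in Slc35c2.

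Slc5a5, the sodium-iodide carrier of the thyroid, had the smallest p of the members. Over its 16 positions (mm9 chr8:73415657-73418656) the level was 27.95%, 33.7% and 36.3% in exercised samples, against 47.4%, 43.97% and 38.5% in sedentary samples. Every exercised sample lay below every sedentary sample, and the difference was -10.6 points (SE 3.57; edgeR unadjusted p = 0.00366, adjusted p = 1.0). The 2 strands differed in direction. Over 6 strand pairs the first base was at 28.6%, 25.7% and 24.8% in exercised samples, against 22.9%, 24.8% and 17.8% in sedentary samples, which is 4.51 points higher on average. The second base was at 18.7%, 21.3% and 20.5% in exercised samples, against 38.2%, 29.6% and 31.4% in sedentary samples, which is 12.9 points lower. The 4 positions outside the pairs were at 61.9%, 64.2% and 69.5% in exercised samples, against 67.01%, 64.6% and 64.2% in sedentary samples, and thus differed by -0.0830 points. These 4 highly methylated positions held 16.3%, 26.3% and 28.7% of the region's reads in exercised samples, against 43.01%, 44.5% and 34.9% in sedentary samples, so the level over summed reads also carries that difference in coverage. With each position given equal weight the level was 33.2%, 34.7% and 34.4% in exercised samples, against 42.2%, 37.4% and 34.03% in sedentary samples, and the groups then overlapped with a difference of -3.78 points. Without the 4 positions of discordant strand pairs the difference over summed reads was -14.2 points (edgeR unadjusted p = 0.0116). The region has no stand-alone position, so its difference was the same when these were left out, but its p in the fit of that smaller table was 0.113.

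The downstream Slc45a3 region was also lower in exercised samples. It was at 68.1%, 67.1% and 68.1% in exercised samples, against 78.0%, 71.2% and 76.7% in sedentary samples. The groups did not overlap, and the difference was -7.53 points (SE 2.11; edgeR unadjusted p = 0.0474). The region has no stand-alone position, but in the fit without such positions its edgeR unadjusted p was 0.211. Of its 4 positions 1 carried most of this difference, with means of 45.5% in exercised and 71.5% in sedentary samples, while its neighbour 1 base before it had 39.8% and 38.8%. The upstream region was not lower, at 16.3% ± 1.42 in exercised muscle, against 14.6% ± 2.37 in sedentary muscle (mean ± SD, n = 3 each).

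Slc7a8 and Slc39a13 were the 2 members with an unadjusted p under 0.05 that were higher in exercised samples. Slc7a8 was at 15.4%, 7.32% and 2.50% in exercised samples, against 1.79%, 3.70% and 0% in sedentary samples, over 3 positions (difference 6.57 points, SE 3.91; edgeR unadjusted p = 0.0247). Exercised sample 1 was the highest of the 6, the groups overlapped, and without that sample the difference was 3.08 points. Slc7a8 has no stand-alone position, and in the fit without such positions its edgeR unadjusted p was 0.0475. Slc39a13, a zinc carrier of the Golgi and endoplasmic reticulum, was at 24.3%, 20.1% and 19.3% in exercised samples, against 17.2%, 15.3% and 20.3% in sedentary samples, over 24 positions. Its difference was 3.61 points (SE 2.14; edgeR unadjusted p = 0.0468). The groups overlapped. The difference was 2.06 points without exercised sample 1, 0.817 points without stand-alone positions (edgeR unadjusted p = 0.191) and 1.76 points with positions weighted equally.

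Other members with small p but none under 0.05 had higher means in exercised samples. Slc4a9 was at 96.4%, 95.3% and 97.5% in exercised samples, against 95.4%, 86.4% and 81.5% in sedentary samples, and Slc5a4a at 95.3%, 97.6% and 95.2%, against 97.6%, 90.2% and 83.3%. In both regions sedentary samples 2 and 3 were the lowest and sedentary sample 1 lay among the exercised samples. Slc25a25 was at 39.04%, 39.7% and 40.6% in exercised samples, against 36.9%, 35.4% and 33.1% in sedentary samples. The groups did not overlap, with a difference of 4.70 points (SE 1.20; edgeR unadjusted p = 0.0801), and its region shares 986 bp with that of Naif1. With positions weighted equally the groups overlapped and the difference was 0.756 points. The citrate carrier Slc25a1 was at 30.1%, 27.02% and 24.2% in exercised samples, against 23.8%, 25.5% and 24.1% in sedentary samples. The potassium-chloride carrier Slc12a4 differed by 1.81 points and the fatty acid carrier Slc27a4 by 1.43 points, both with overlapping samples.

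On the lower side, Slc41a1 shows how 1 sample can set a difference. Its level over 3 positions was 0.649%, 3.12% and 0.820% in exercised samples, against 4.55%, 1.37% and 33.3% in sedentary samples. Sedentary sample 3, the library with the lowest coverage, made most of the difference of -11.6 points, which was -1.43 points without it. Slc15a4 was at 10.4%, 7.57% and 8.22% in exercised samples, against 12.98%, 9.76% and 11.3% in sedentary samples (edgeR unadjusted p = 0.0506). Its groups overlapped by 1 sample of each. The amino acid carrier Slc43a2 differed by -3.23 points, the NAD carrier Slc25a51 by -2.66 points, the potassium-chloride carrier Slc12a7 by -3.24 points and 1 of the zinc carrier Slc39a8 regions by -3.10 points. Slc25a51 was at 22.6%, 24.1% and 23.6% in exercised samples, against 23.9%, 26.3% and 27.9% in sedentary samples. Its groups overlapped by 1 sample of each, and without strand pairs that differ by 50 points or more its difference was 0.947 points.

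**Figure D5:**
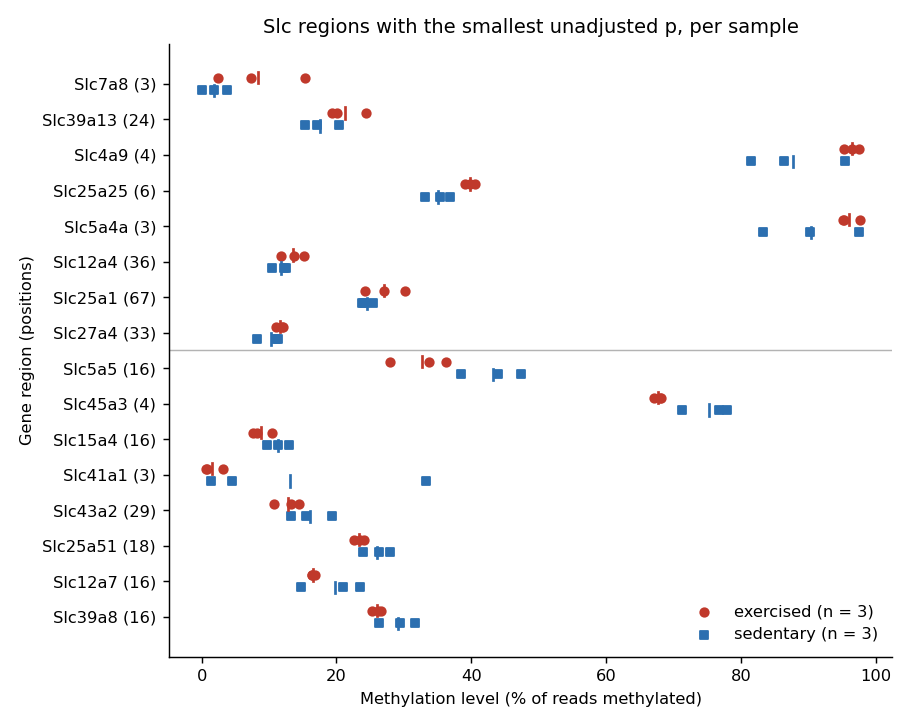
Methylation level (% of reads methylated) in 3 exercised samples (red circles) and 3 sedentary samples (blue squares) of the 8 members with the smallest p among those higher in exercised samples (above the line) and the 8 among those lower (below it), with group means as vertical bars and the number of positions in brackets. Slc5a5 and Slc45a3 separate without overlap below the line and Slc25a25 above it, and Slc41a1 has a single sedentary sample at 33.3%.

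Carriers with a known role in muscle showed small differences. Of 26 listed genes 18 were measured, 11 higher and 7 lower in exercised samples, none at an unadjusted p under 0.05, with a median difference of 0.323 points and a range from -2.05 to 2.72 points. Their levels ran from 10.95% to 45.7%. The glucose carrier Slc2a1 was at 27.9%, 23.8% and 25.2% in exercised samples, against 26.1%, 24.3% and 23.4% in sedentary samples. The lactate carrier Slc16a1, whose CpG-rich promoter is printed above, was at 18.4%, 18.2% and 16.2% in exercised samples, against 16.7%, 17.1% and 18.5% in sedentary samples. Slc16a3, a carrier that exports lactate from glycolytic fibres, was at 42.1%, 42.4% and 35.04%, against 42.2%, 41.3% and 37.3%. All 3 regions overlapped between the groups. The insulin-responsive glucose carrier Slc2a4 had 2 listed positions and so was outside the set; it was at 2.38%, 0% and 0% in exercised samples, against 30%, 1.90% and 3.57% in sedentary samples, where sedentary sample 1 stands apart.

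Among the muscle carriers of the mitochondrion the exercised means were higher with overlapping samples. Slc25a4 was at 21.1%, 17.6% and 17.7% in exercised samples, against 16.8%, 16.2% and 18.6% in sedentary samples. Slc25a12 was at 21.6%, 16.96% and 15.01%, against 13.7%, 14.3% and 17.3%. Slc25a33 was at 17.5%, 14.5% and 12.7%, against 13.5%, 12.9% and 13.9%. In each of the 3, exercised sample 1 was the highest of the 6 samples. The creatine carrier Slc6a8, on the X chromosome, was at 18.6%, 20.7% and 20.9% in exercised samples, against 20.04%, 24.7% and 21.6% in sedentary samples. The amino acid carrier Slc38a2 was at 21.8%, 21.3% and 22.9%, against 24.4%, 23.1% and 22.4%. Both had lower exercised means with overlap.

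Families were sorted by substrate as a whole, so the sugar group holds Slc5a5 (iodide), Slc5a7 (choline) and Slc5a8 (monocarboxylates) beside the glucose carriers. By substrate, the median differences outside Slc25 lay between 0.0915 and 1.02 points. The median difference was 0.324 points in 36 amino acid carrier regions (21 higher, 15 lower), 1.02 points in 14 regions of the sugar group (9 higher, 5 lower) and 0.373 points in 29 inorganic ion carrier regions (15 higher, 14 lower). It was 0.203 points in 20 metal carrier regions (11 higher, 9 lower), 0.0915 points in 21 regions for monocarboxylates and organic ions (12 higher, 9 lower) and 0.118 points in 26 Golgi and endoplasmic reticulum carrier regions (15 higher, 11 lower). The sugar group had the highest median level, 31.3%, although its 6 Slc2 glucose carrier regions had 24.3%, and metal carriers had one of the lowest, 19.4%; without stand-alone positions the sugar group was at 5.31% and the metal carriers at 2.07%. Carriers of nucleosides and vitamins had a median of 28.9% over 10 regions, and at 17.5% they had the highest median of the substrate groups without stand-alone positions.

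Of the single families with at least 5 regions, Slc5 (sodium-coupled solutes) had the highest median level, 33.7%, and Slc12 (cation-chloride carriers) the lowest, 14.03%. The Slc5 regions had a median of 24.3% without stand-alone positions, against 1.99% for Slc12. Between them lay Slc7 at 30.5%, Slc1 at 28.9%, Slc29 at 28.6%, Slc9 at 27.4%, Slc26 at 26.4%, Slc16 at 26.1%, Slc4 at 25.1% and Slc39 at 24.5%, the adaptors left out of Slc4 and Slc9. Slc2 was at 24.3%, Slc22 at 22.6%, Slc6 at 21.1%, Slc35 at 19.99%, Slc30 at 19.7% and Slc38 at 18.8%. The median differences were between -1.30 points in Slc26 and 1.37 points in Slc4. The Slc35 family, with 22 regions, had 11 higher and 11 lower members and a median difference of 0.00761 points.

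Single positions were tested in the same way. Of 4575 positions tested in Slc regions none was called (edgeR, Benjamini-Hochberg over 253960 positions; smallest adjusted p 0.919), and 0.0% were called over all positions. At an unadjusted p under 0.05 there were 155 (3.39%), 103 higher and 52 lower in exercised samples, against 3.32% of all positions. Of these 155, 125 lay at a mean level under 10%, and 26 were stand-alone. Among all 4802 Slc positions 68.4% lay under 10% and 26.1% were stand-alone. The same counts for all positions at that p are not given here, so nothing particular to the members is concluded from them. The 5 with the smallest p on the higher side were in Slc23a2 (an ascorbate carrier), Slc35c1 (a GDP-fucose carrier), Slc25a22, Slc11a2 (an iron and manganese carrier) and Slc25a33. The Slc23a2 position (mm9 chr2:131970730) was at 19.5%, 11.6% and 9.76% in exercised samples, against 0% in each sedentary sample, with 24 to 82 reads per sample. The groups did not overlap there. In Slc25a22 (26.4%, 3.23% and 2.88% in exercised samples) and Slc11a2 (21.9%, 3.52% and 1.94%) exercised sample 1 stood far above the others.

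The 5 positions with the smallest p on the lower side were in Slc15a4, Slc8a3 (a sodium-calcium exchanger of muscle and brain), Slc25a28, Slc25a36 and Slc41a1. The Slc25a28 position (mm9 chr19:43749167) was at 0%, 0% and 0.935% in exercised samples, against 5.16%, 4.83% and 4.00% in sedentary samples. The Slc25a36 position (mm9 chr9:97011085) was at 3.08%, 0% and 0% in exercised samples, against 20.2%, 5.88% and 17.1% in sedentary samples. Both separated the groups, at low levels. The Slc15a4 position was at 25.6% in sedentary sample 1 and at 1.86% or less in the other 5 samples.

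The authors' deposited table gives each position its own p, not adjusted. By the authors' deposited table, 146 of the 4575 Slc positions (3.19%) had a p under 0.05, 98 higher and 48 lower in exercised samples, against 3.13% of all positions (2.15% higher and 0.983% lower). A further column of the authors' deposited table sorts positions into classes. In the strong classes, which begin at a difference of 20 percentage points, were 7 Slc positions. They are 0.153% of the Slc positions with a p, against 0.211% (537 of 253960) of all such positions. All 7 were stand-alone positions. A difference of that size needs a mean level of at least 10%, where 82.6% of Slc positions were stand-alone. The stand-alone share among all 537 is not given here, so nothing particular to the members is concluded. Of the 7, those higher in exercised samples were in Slc30a4, a zinc carrier, and Slc39a13. The Slc39a13 position was at 89.5%, 54.8% and 52.3% in exercised samples, against 33.03%, 30.8% and 32.7% in sedentary samples, while its surroundings had a median of 2.77%. Those lower in exercised samples were in Slc20a1 (a phosphate carrier), Slc22a23, Slc25a37, Slc27a3 and Slc6a8. The Slc20a1 position was at 19.1%, 27.3% and 29.4% in exercised samples, against 56.2%, 45.5% and 59.1% in sedentary samples. The groups did not overlap at either position, and neither was called in the edgeR fit.

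Regions of marker genes for other cell types of muscle were few, and none had an unadjusted p under 0.05. There were 6 endothelial regions (2 higher, 4 lower), 3 of adipocytes (1 higher, 2 lower), 4 of nerve and Schwann cells (2 higher, 2 lower) and 2 of leukocytes (1 higher, 1 lower). These lists held 10, 6, 7 and 7 genes. Their differences ran from -5.50 to 1.97 points, -8.03 to 0.754, -2.66 to 8.17 and -2.54 to 0.421, in that order. The 3 fibroblast regions, from 6 listed genes, were higher in exercised samples by 0.266 to 2.20 points. The 2 muscle regions, from 14 listed genes, were higher by 1.47 and 2.71 points. Over all regions 61.0% were higher. The part of cell composition in the differences above was not tested.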

How the data were processed

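The submitters' processing notes name mm9 as the build and list Bismark 0.7.7, Bowtie 0.12.9, Trim Galore 0.2.5 and cutadapt 1.0, without saying how each was run. The authors deposited 1 table with, for each cytosine position and sample, the methylated fraction and the coverage count, at least 10 reads in every sample. The authors also deposited a difference and an unadjusted p-value per position. Methylated counts were the product of fraction and coverage, whole within 0.00236 of a read. No other per-sample column was present. Symbols came from a RefSeq table (GRCm38.p6, names only), matched for 10655 of 10755 regions.

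Counts were summed over each region with at least 3 positions and tested on all regions with edgeR 4.0.16 (R 4.3.3; quasi-likelihood, default settings apart from a common dispersion without trend; Benjamini-Hochberg at 0.05), with limma 3.58.1 (offset of 2 reads) as an alternative; positions were tested likewise. The fit was also run on simulated counts with the same spread setting in every region. Real regions need not share that setting, so the run does not show how the test behaves on these data. Differences are exercised minus sedentary means of the level, in percentage points. With 3 against 3 samples an exact permutation test cannot go below p = 0.1. Reads carry no stated molecular identifiers, so depth bounds counting error only. No 2 samples of a group agreed within sampling noise (lowest mean chi-square 1.64). As alternatives, samples were left out in turn, a replicate block was added, and positions were limited to those covered by 20 reads or more or to those below the 99.9th percentile of depth; regions needed 5 positions, uninformative units were kept, or stand-alone positions were dropped. Leaving out strand pairs that differ by 50 points, and giving each position of a region equal weight, were added after seeing the data. Since levels rest on summed reads, a region's level also depends on how its reads are spread over its positions.

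Members, classes and lists were chosen with earlier results of these data known. The genes named were, in each direction, the 8 of smallest unadjusted p among members covered by 20 reads or more on average, since none passed the threshold, the listed muscle carriers, the Slc25 members, the 5 highest and 3 lowest levels among members with at least 6 positions, families with at least 5 regions, the 5 positions per direction with the smallest p and the positions in the strong classes. Members at 60% or more or under 10%, those whose groups did not overlap, genes with several regions and the Slc25a34 promoter and the other promoters shown were chosen after their values were seen. Some members and their values are not reported here by name.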

Additional observations from a re-analysis of the deposited data

How the results depend on the processing

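No member was called under any alternative. The count of members at an unadjusted p under 0.05, 4 as reported, was 12 without stand-alone positions, 7 without discordant strand pairs and 3 to 10 when 1 sample was left out (10 without exercised sample 3, 8 without sedentary sample 1 and 8 without sedentary sample 2). Over all regions, 237 as reported, it was 423, 336 and 169 to 601, with 601, 276 and 345 for those 3 samples. Slc positions at an unadjusted p under 0.05, 155 as reported (3.39%, against 3.32% of all positions), were 95 without stand-alone positions (2.81%, against 2.62%). With 1 sample left out they ran from 78 (1.78%, against 1.83%, without exercised sample 2) to 123 (2.76%, against 2.62%, without sedentary sample 2). Without exercised sample 3 they were 92 (2.07%, against 1.82%). Sample numbers gave no sign of pairing. The correlations of deviations between same-numbered samples were 0.0190, -0.219 and -0.111, against -0.101 to 0.221 between differently numbered samples. With 3 samples per group these values depend on one another and cannot exclude a pairing. With the replicate block there were 5 members (2.38%, against 204 regions or 2.04%) and 42 positions (0.918%, against 0.729% of all positions) at an unadjusted p under 0.05. The median level of Slc25 regions was 22.7% at a coverage of at least 20, 2.43% without stand-alone positions and 16.7% without discordant strand pairs, and that of plasma membrane carriers 21.5%, 3.73% and 16.6%, and 22.1% with at least 5 positions; with positions weighted equally the Slc25 median was 21.89%. The median differences with 1 sample left out ran from -0.108 to 0.954 points over all members, 0.272 to 1.64 in Slc25 and -0.0742 to 0.625 in plasma membrane carriers.

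Of 32 named genes, 14 changed direction under some alternative. Without stand-alone positions the difference was -0.170 points in Slc27a4, 2.94 in Slc16a3, -0.201 in Slc30a1, 0.663 in Slc39a14, -0.956 in Slc2a1, 0.598 in Slc6a8 and -0.188 in Slc16a1. Without discordant strand pairs it was 0.947 in Slc25a51 and 0.636 in Slc8a3, and at a coverage of at least 20 it was 5.15 in Slc39a14. With positions weighted equally it was -0.473 in Slc6a6, -0.384 in Slc16a1 and -0.107 in Slc12a2; among other named genes it kept its sign but was 0.277 in Slc25a1, 0.470 in Slc27a4, -1.11 in Slc25a51 and -2.00 in Slc12a7. With 1 sample left out it ran from -1.33 to 3.72 in Slc6a6, -1.88 to 2.02 in Slc16a3, -1.17 to 2.11 in Slc22a5, -0.434 to 4.16 in Slc30a1, -0.00862 to 5.04 in Slc19a2, -0.118 to 1.90 in Slc2a1, -0.911 to 0.581 in Slc3a2, -0.210 to 0.876 in Slc16a1 and -1.42 to 0.613 in Slc8a3. The causes were not tested. Depth is lowest in sedentary sample 3, and regions with 3 to 5 positions have the widest spread.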
